A study of Mus musculus with 32 samples.

Results

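The mRNAs of 8 genes of the AMPA-type glutamate receptor were described across the soma and neurites of cultured mouse hippocampal neurons. They are the 4 pore-forming subunits Gria1, Gria2, Gria3 and Gria4, the 3 transmembrane AMPA receptor regulatory proteins (TARPs) Cacng2, Cacng3 and Cacng8, and the cornichon Cnih2. The genes were chosen by symbol, with earlier results of these data known, and all 8 of the 55573 genes of the count table passed the filter of a mean count of at least 10. RNA-seq covered 16 libraries in 8 groups of 2, and in vitro DART-seq, which maps the RNA modification m6A, covered another 16 libraries whose values are given only as averages.

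Neurons from newborn mice were grown for 15 days on microporous membranes, so that cell bodies stay on top (soma) while axons and dendrites grow through the pores (neurites). The WT neurons carry unmodified Mettl3 and the Mettl3 KO neurons come from Mettl3Flox/Flox mice, in which Cre removes part of the gene for the m6A methyltransferase. Both genotypes received an AAV expressing Cre-P2A-dTomato from the neuronal hSyn promoter at DIV 7, so the controls also carry Cre and non-neuronal cells keep Mettl3. All cultures were silenced for 16 h with tetrodotoxin (1 µM), which blocks sodium channels, and the NMDA receptor blocker D-AP5 (50 µM), and were then left untreated (Ctrl) or depolarised with 55 mM KCl for 2 h. Each replicate comes from another litter, whose pups of both sexes were pooled, and the soma fraction also holds neurites that did not cross the membrane. In bulk RNA of this kind, fewer cells of a type and less RNA per cell cannot be told apart.

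AMPA receptors are tetramers of the 4 Gria subunits and carry most fast excitatory transmission in the brain. The edited GluA2 protein, encoded by Gria2, makes the channel almost impermeable to calcium, so the subunit make-up sets what the synapse lets through. TARPs and cornichons bind the receptor as auxiliary subunits, bring it to the surface and slow its closing, and in hippocampal pyramidal neurons Cacng8 and Cnih2 act together on the same receptors. mRNAs of several synaptic proteins are carried into dendrites, where they can be translated close to the synapse.

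The libraries held 33789183 to 71394235 counted fragments. All 7 neuronal markers were detected in every library, and the summed level of 9 astrocyte markers was 1154 to 1176 CPM (counts relative to library size, TMM-scaled) in WT Ctrl soma against 2044 to 3131 CPM in WT Ctrl neurites. Mettl3 itself measured 13.5 to 16.7 CPM in the 4 WT soma libraries, 6.18 to 11.0 CPM in the 4 Mettl3 KO soma libraries, 9.05 to 12.5 CPM in WT neurites and 3.91 to 8.24 CPM in Mettl3 KO neurites. The WT and Mettl3 KO values did not overlap within a compartment, and in Ctrl the edgeR log2 difference was −0.72 in soma (adjusted p = 0.625) and −1.20 in neurites (adjusted p = 0.397). The gene count also takes in exons outside the deleted part, so these levels do not measure the deletion alone. The SD over genes of the log2 ratio between replicates was 0.153 to 0.346 in WT groups and 0.474 to 1.26 in Mettl3 KO groups. KCl-treated Mettl3 KO insert 1 stood apart from the rest, with 9895 CPM of astrocyte markers in soma and 19334 CPM in neurites.

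Gria1 led all members, and the other subunits lay well below it. Levels are compared between genes only per kilobase of annotated exon. Over the 8 WT libraries Gria1, which encodes GluA1, averaged 145 CPM per kilobase (range 120 to 186). Cnih2, a cornichon that helps receptors leave the endoplasmic reticulum and slows their deactivation, averaged 69.4 CPM per kilobase (33.7 to 114), followed by Gria2 with 34.8 (27.5 to 43.9). The TARPs Cacng2, or stargazin, and Cacng3 averaged 20.1 (16.0 to 25.9) and 19.3 (14.3 to 24.0) CPM per kilobase. Gria3, Gria4 and the TARP Cacng8 closed the order with 8.76 (6.79 to 10.8), 7.32 (5.46 to 8.90) and 5.44 (3.85 to 6.81) CPM per kilobase.

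The ranges of neighbours in this order overlapped for Cnih2 and Gria2, for Cacng2 and Cacng3, for Gria3 and Gria4, and for Gria4 and Cacng8. They did not overlap between Gria1 and Cnih2, between Gria2 and Cacng2, or between Cacng3 and Gria3. The gap between Cacng3 and Gria3 depends on the length used. The annotated exons of Gria3 add up to 9859 bases, while the coding transcript chosen for it here has 5192. On GRCm38, Gria1 (ENSMUSG00000020524) spans chr11:57011387-57330244 on the plus strand, Gria2 (ENSMUSG00000033981) chr3:80681450-80802835 on the minus strand, Gria3 (ENSMUSG00000001986) chrX:41400854-41678601 on the plus strand and Gria4 (ENSMUSG00000025892) chr9:4417896-4796234 on the minus strand. Of the auxiliary genes, Cacng2 (ENSMUSG00000019146) spans chr15:77991748-78120028 on the minus strand, Cacng3 (ENSMUSG00000066189) chr7:122670492-122769393 and Cacng8 (ENSMUSG00000053395) chr7:3390683-3415648 on the plus strand, and Cnih2 (ENSMUSG00000024873) chr19:5092868-5098521 on the minus strand. Among 15551 protein-coding genes in WT Ctrl soma, Gria1 stood at the 98.4th percentile of CPM per kilobase, Cnih2 at the 93.6th, Gria2 at the 91.2nd, Gria3 at the 71.9th, Gria4 at the 68.8th and Cacng8 at the 64.9th.

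**Figure D1:**
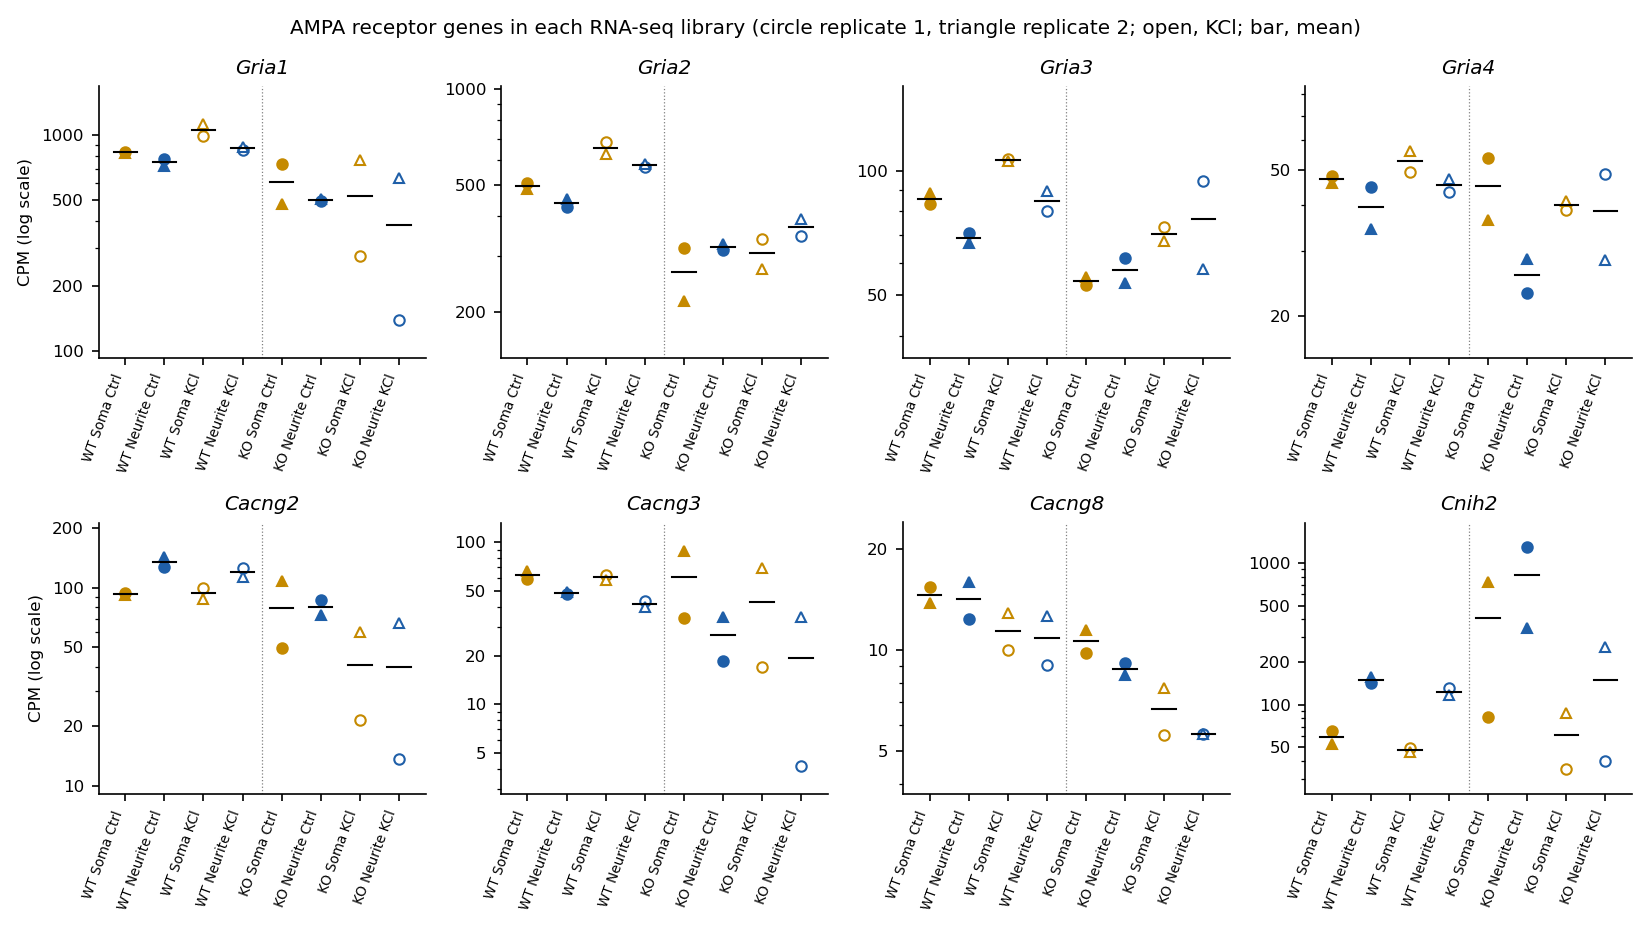
Level of each member in the 16 RNA-seq libraries, in CPM on a log axis, with 1 point per library (circle, replicate 1; triangle, replicate 2; open, KCl) and a bar at the mean of each group of 2. WT replicates lie close together, whereas Cnih2 ranges from 35.1 to 1284 CPM across the Mettl3 KO libraries.

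Within the 4 subunits, the share of each in their summed CPM per kilobase was nearly the same in every WT library. Gria1 took 72.5% to 75.7%, Gria2 16.2% to 19.3%, Gria3 4.22% to 4.86% and Gria4 3.39% to 4.19% over the 8 WT libraries. These ranges cover soma and neurites and both treatments, so the make-up moved by only a few percentage points between compartments and with KCl. The shares depend on the length used, because the annotated exons of Gria2 add up to 15548 bases while the coding transcript chosen for it here has 10371. With 1 coding transcript per gene, Gria1 took 65.8% to 69.6% and Gria2 20.0% to 23.5%. In Mettl3 KO libraries the Gria1 share ran from 37.0% to 80.4%, with the lowest value in the neurites of KCl-treated insert 1.

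**Figure D2:**
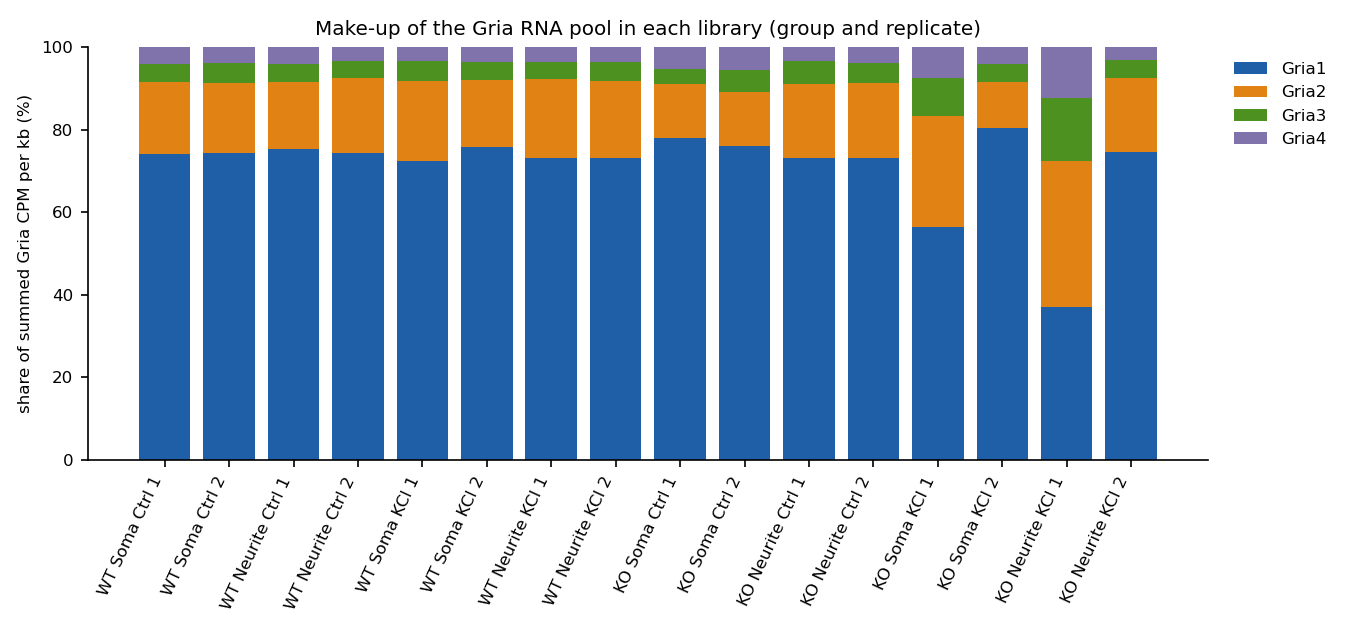
Share of Gria1, Gria2, Gria3 and Gria4 in their summed CPM per kilobase of annotated exon, in percent, as stacked bars from 0 to 100 with 1 bar per library. Gria1 holds 72.5% to 75.7% of every WT bar and 37.0% to 80.4% of the Mettl3 KO bars.

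In WT neurons the summed level of the 4 auxiliary genes relative to the 4 subunits lay higher in neurites than in soma. The ratio of summed CPM per kilobase was 0.460 and 0.494 in the 2 WT Ctrl soma libraries and 0.882 and 1.02 in the 2 WT Ctrl neurite libraries. After KCl it was 0.309 and 0.359 in soma and 0.625 and 0.717 in neurites. Both neurite libraries lay above both soma libraries in each treatment, and both KCl libraries lay below both Ctrl libraries in each compartment. The Mettl3 KO libraries did not all follow this order, with 0.546 and 5.60 in Ctrl soma and 8.59 and 2.47 in Ctrl neurites, so that soma lay above neurites in replicate 2. After KCl they had 0.469 and 0.650 in soma and 0.568 and 1.53 in neurites. Cnih2 made up most of the auxiliary level in neurites of WT neurons, and the other auxiliary genes did not all share the shift. In WT Ctrl the fitted log2 difference of neurites minus soma was 0.45 for Cacng2, −0.46 for Cacng3 and −0.14 for Cacng8. The ratio was not tested because the members were chosen with earlier results of these data known.

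DART-seq sites were called in 6 of the 8 RNAs, with the most sites and the highest score in Gria2. In this assay a cytidine deaminase fused to an m6A-binding YTH domain acts on the purified RNA and converts the C after a methylated A to U, and the share of converted reads is the C2U value. The deposited value of a site is an average over libraries, so no error, coverage or replicate could be given, and the 27 sites of the members are described without tests. The authors kept only sites at a C after A or G followed by A (RAC) that were edited more in WT than in Mettl3 KO, so neither property is a finding here.

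Windows of 21 bases around 9 of the 27 sites are printed because they cover all 6 RNAs and both high and low values. They come from the GRCm38 reference, are written 5′ to 3′ as DNA in the direction of the RNA, and carry the RAC triplet in capitals.
Gria1 site 1: tatttccaAACcaacaatcac
Gria2 site 4: gcgtcttaGACaagctgaaaa
Cacng2 site 1: ttgcagggAACttcaaaggtc
Cacng2 site 2: aaacaaacAACaaacaaacaa
Cacng3 site 1: gagcccaaGACaggaaatccc
Cacng8 site 1: ggcctcatGACcatcgccatc
Cacng8 site 6: tataaagaGACcagcagaagg
Cnih2 site 1: aagctctaAACgggtgggggc
Cnih2 site 2: aggggtagGACttccggtttt

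Gria2 had 9 sites, with C2U values from 1.04% to 12.7%. Site 1 lay in the 5′UTR, 3 sites lay in coding sequence and 5 in the 3′UTR. The printed Gria2 site 4 (chr3:80690457-80690477, minus strand) was edited at 12.4% and lies in exon 14 of 16 of a coding transcript other than the one used for the other sites.

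Gria1 had 7 sites, all in coding sequence, with values from 1.76% to 5.36%. The highest was the printed site 1 (chr11:57015160-57015180, plus strand) in exon 2 of 16. The first 2 sites lie in exons 2 and 4, and the other 5 fall in exons 11 and 12. No site of Gria1 was called in its 3′UTR, which is annotated with 2600 bases in the transcript used here.

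The TARPs differed in how many sites they carried and where. Cacng8 had 6 sites at 1.27% to 8.20%, 5 of them in coding sequence, and the highest was site 1 (chr7:3394321-3394341, plus strand) in exon 3 of 6. Site 6 of Cacng8 (chr7:3416096-3416116, 4.52%) lies 504 bases past the last coding base and beyond the annotated end of the gene, whose 3′UTR is annotated with only 46 bases. The authors' search took in sequence past the annotated 3′ ends. Cacng2 had a coding site at 8.69% (chr15:78013382-78013402, minus strand), 4 bases from an exon edge so that its window crosses into intron, and a 3′UTR site at 4.46% (chr15:77995009-77995029). Cacng3 had a single site, at 7.85% in the 5′UTR (chr7:122671602-122671622, plus strand).

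Cnih2 was edited least. Its 2 sites lie in the 3′UTR, 207 and 269 bases past the last coding base, with values of 0.648% (chr19:5093256-5093276, minus strand) and 0.721%. Both averages lie below the lowest editing rate at which the study's methods call a site, so they are near the floor of the assay. Site 2 (chr19:5093194-5093214, minus strand) holds GGACT, the only 1 of the 27 sites (3.70%) with this sequence, against 3.65% of all 18231 sites. The wider m6A motif DRACH (any base but C, then A or G, then AC, then any base but G) was present at 18 of the 27 sites (66.7%) and at 70.9% of all sites, read on the RNA strand only. The median C2U value was 4.46% over the 27 sites and 3.54% over all sites.

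**Figure D3:**
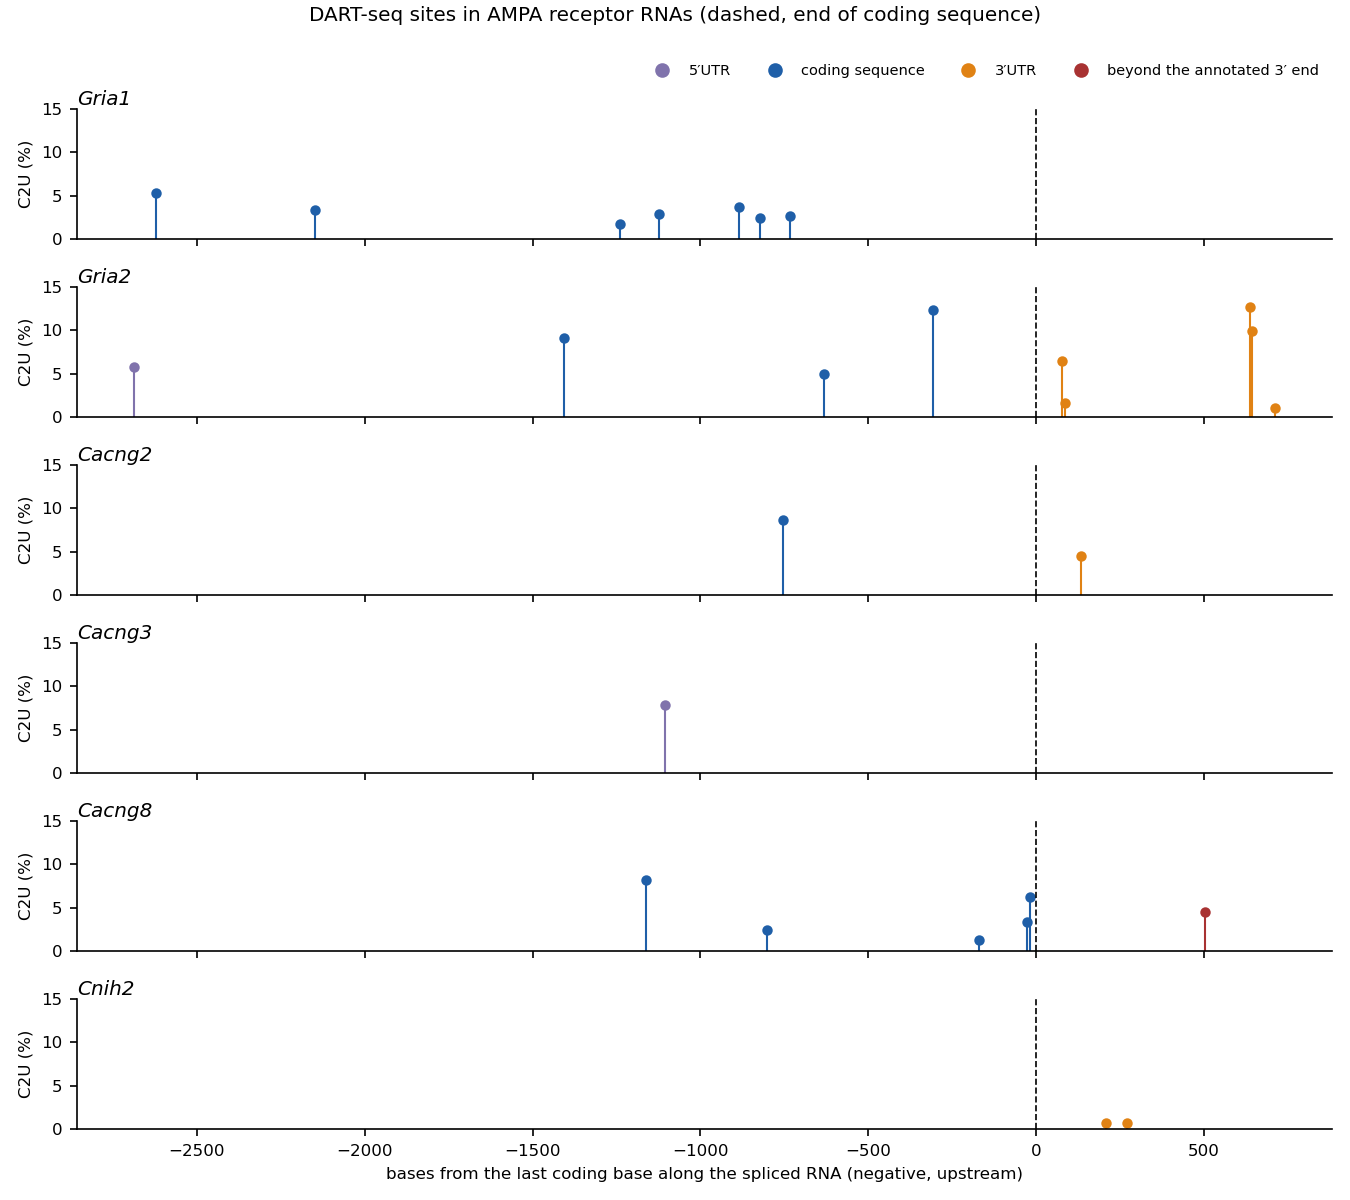
C2U value of each DART-seq site of the 6 members that have any, in percent, against its distance in bases of mRNA from the last coding base, with negative distances upstream. Sites of Gria1 all lie upstream of 0, whereas Gria2 has sites on both sides, up to 12.7%.

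The authors' editing score adds the average C2U fractions over the called sites of an RNA, so it rises with the number of sites. Gria2 scored 0.515 in WT, at the 97.7th percentile of the 5643 RNAs listed, and 0.213 in Mettl3 KO. Cacng8 scored 0.236, Gria1 0.206, Cacng2 0.138 and Cacng3 0.0785, where the median RNA scored 0.103 with 2 sites. Cnih2 scored 0.0138, at the 3.26th percentile. Scores of the same RNAs in Mettl3 KO were 0.0600, 0.0859, 0.0251, 0.0256 and 0.00587, lower in each, as the site filter requires.

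Scores were higher in neurites than in soma for 5 of the 6 RNAs, and the same held for 68.8% of all 5643 RNAs. Gria2 scored 0.614 in neurites and 0.446 in soma, Gria1 0.262 and 0.168, and Cacng2 0.175 and 0.0922. Cacng8 and Cnih2 differed less, with 0.244 and 0.229 and with 0.0153 and 0.0115. Cacng3 went the other way with 0.0192 in neurites and 0.0947 in soma, which rests on 1 site. The median ratio of neurite to soma score was 1.36 over the members and 1.30 over all RNAs. The study describes its soma and neurite site averages as taking in Ctrl and KCl-treated samples alike. Scores that add such averages cannot be assigned to 1 treatment. Each score is the authors' average with no replicates, so none of these differences was tested.

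Gria3 and Gria4 had no site. Calling a site needs reads, and the share of genes with a like count that are listed gives the scale: of 1179 genes within 1.25 times the mean count of Gria3, 81.8% were listed, and of 1535 genes around Gria4, 63.1%. Cacng8 was listed although only 15.7% of the 1253 genes with its mean count were. Absence from the list says only that no site passed the filters.

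In untreated WT neurons, Cnih2 mRNA was enriched in neurites and was the only member past the threshold. The comparison asks which RNAs are held back in the soma or carried into neurites. Cnih2 measured 65.1 and 52.5 CPM in soma and 142 and 156 CPM in neurites. Both neurite values were above both soma values by more than the spread of either pair. In edgeR the neurite level was 2.38-fold that of soma (log2 1.25, SE 0.133, n = 2 against 2, adjusted p = 0.000325), which passed 1.5-fold at an adjusted p of at most 0.05. That made 1 member called higher and 0 called lower, where 8.99% and 4.52% of the 23200 genes tested were.

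Cacng2, the founding TARP, was also higher in neurites, but by less than 1.5-fold. It measured 94.1 and 91.6 CPM in soma and 128 and 143 CPM in neurites. The groups did not overlap, and edgeR gave a 1.37-fold difference (log2 0.45, SE 0.114, adjusted p = 0.0217). Cacng3, its close relative, went the opposite way with 59.1 and 66.6 CPM in soma and 48.0 and 49.6 CPM in neurites (log2 −0.46, SE 0.114, edgeR adjusted p = 0.0205). Neither reached the fold threshold. Cacng8 overlapped between compartments, at 15.4 and 13.8 CPM in soma and 12.4 and 16.0 CPM in neurites.

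All 4 receptor subunits were lower in neurites in both replicates, by small amounts. Gria1 measured 837 and 827 CPM in soma and 773 and 724 CPM in neurites, and Gria2 506 and 487 against 428 and 451 CPM. Gria3 had 83.1 and 88.3 CPM in soma and 70.9 and 66.9 CPM in neurites, and Gria4 48.0 and 46.1 against 44.8 and 34.4 CPM. No soma and neurite pair of these overlapped, but how many of all genes do the same with 2 libraries per group was not counted. Of the 23200 genes tested, 43.0% had a fitted value above 0. The log2 differences in the fit were −0.24, −0.27, −0.41 and −0.34 for Gria1 to Gria4, and the edgeR adjusted p of Gria3 was 0.0235 while those of the others lay between 0.0807 and 0.131. None reached 1.5-fold. The fit to WT libraries centres all genes at a median of −0.10, whereas the CPM values are scaled over the 16 libraries, so the fitted differences sit about 0.1 below those of the CPM.

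**Figure D4:**
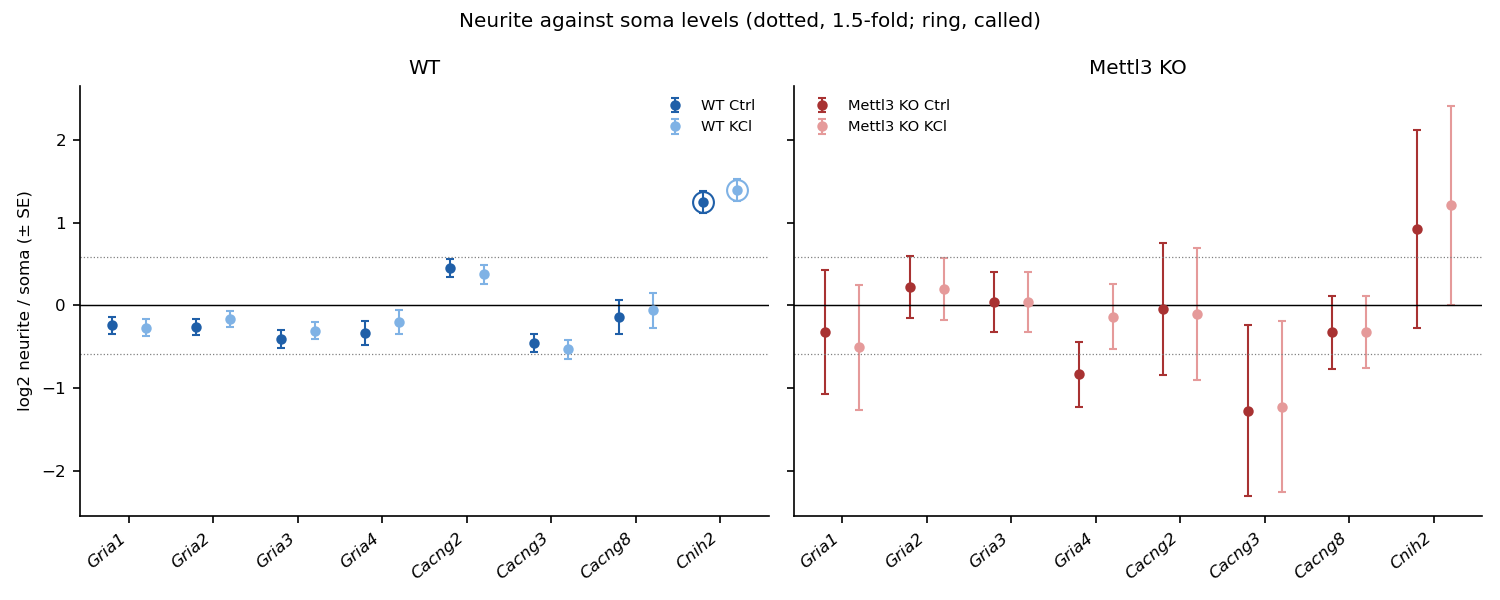
Log2 difference of neurites minus soma for each member in Ctrl and KCl neurons, WT at left and Mettl3 KO at right, as the fitted value ± SE from edgeR on the 8 libraries of the genotype, with rings around called values and dotted lines at 1.5-fold. In WT, Cnih2 lies at 1.25 and 1.39, Cacng2 at 0.45 and 0.38, and the 4 subunits between −0.41 and −0.16.

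Under KCl the same member passed. Cnih2 measured 49.7 and 46.1 CPM in soma and 131 and 116 CPM in neurites of WT KCl neurons, a 2.62-fold difference (log2 1.39, SE 0.134, edgeR adjusted p = 0.000343). Again both neurite libraries stood above both soma libraries. It was the only member called, higher, where 6.84% of genes were called higher and 2.70% lower. Cacng2 had 99.4 and 88.1 CPM in soma and 126 and 114 CPM in neurites (log2 0.38, edgeR adjusted p = 0.0552). Cacng3 had 63.3 and 58.2 against 43.4 and 39.7 CPM (log2 −0.53, edgeR adjusted p = 0.0142), and the subunits lay between −0.31 and −0.16 with adjusted p of 0.0825 to 0.388. The median over the 8 members was −0.26 in Ctrl and −0.18 in KCl, against −0.10 and −0.03 over all genes tested.

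Where all 16 libraries were fitted together instead, which shares the wider spread of the Mettl3 KO libraries, the log2 values of Cnih2 were 1.35 and 1.37 with edgeR adjusted p of 0.830 and 0.990, and no gene at all was called in either treatment (1680 and 1197 at an unadjusted p of at most 0.05). Among astrocyte markers, 5 of 9 were called higher in Ctrl neurites (median log2 0.94) and 3 of 9 in KCl neurites (median −0.15), and the neurite and soma ranges of their summed CPM did not overlap in either treatment (1651 to 1667 CPM in KCl soma and 2363 to 2809 CPM in KCl neurites). The 7 neuronal markers summed to 3182 to 3332 CPM in Ctrl soma and 4491 to 5342 CPM in Ctrl neurites. The part of either cell type in the member values was not tested.

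KCl left every member below the 2-fold threshold in WT neurons. Depolarisation itself was plain in the immediate early gene Fos, which averaged 12.7 CPM in WT Ctrl soma and 2977 CPM after KCl. Gria1 measured 994 and 1126 CPM in KCl soma and 851 and 887 CPM in KCl neurites, above its Ctrl values in both compartments. Gria2 measured 682 and 626 CPM in soma and 572 and 581 CPM in neurites after KCl, also above Ctrl without overlap. In neurites its difference was 1.34-fold (log2 0.42, SE 0.0976, edgeR adjusted p = 0.0236) and in soma 1.25-fold (log2 0.32, adjusted p = 0.0553).

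Gria3 followed with 107 and 105 CPM in soma and 80.2 and 89.3 CPM in neurites after KCl (log2 0.23 and 0.33). Gria4 measured 49.3 and 56.1 CPM in soma and 43.4 and 47.2 CPM in neurites, and in neurites its KCl and Ctrl values overlapped. The 4 auxiliary genes had negative fitted log2 values in both compartments, but in soma Cacng2 turned to 0.01 under the scaling over 16 libraries. With 1 library left out, the soma values of Gria4, Cacng2 and Cacng3 also turned. Cnih2 was at −0.37 in soma and −0.24 in neurites, with both KCl values below both Ctrl values in each (edgeR adjusted p = 0.0914 and 0.321). Cacng8 measured 9.98 and 12.9 CPM in KCl soma and 9.02 and 12.7 CPM in KCl neurites (log2 −0.43 and −0.35), overlapping with Ctrl in neurites.

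Cacng2 and Cacng3 were at −0.06 and −0.13 in soma, where KCl and Ctrl overlapped, and at −0.14 and −0.20 in neurites. How many of all genes separate between KCl and Ctrl without overlap was not counted. In all, 0 of 8 members were called in soma, where 3.80% of genes were called higher and 3.01% lower, and 0 in neurites, where 3.24% and 1.70% were. At p of at most 0.05 without adjustment in edgeR, 3 members passed in soma (Gria1, Gria2 and Cnih2) and 3 in neurites (Gria1, Gria2 and Gria3). Of all 23200 genes tested, 6151 passed this in soma and 5250 in neurites. DESeq2 also called 0 members in each. The median over the members was 0.01 in soma and 0.04 in neurites, both at 0.01 over all genes.

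Neurite enrichment of the members did not change detectably with KCl. The difference between the KCl and the Ctrl neurite-minus-soma value lay between −0.08 for Cacng3 and 0.15 for Gria4, with SE of 0.173 to 0.248 and unadjusted edgeR p of 0.450 to 0.907. This count of 0 called members stands beside 2.00% of genes called higher and 1.35% lower at 1.5-fold with p of at most 0.05 unadjusted, a split that turned from 465 against 314 genes to 343 against 447 with RLE scaling. DESeq2 also called 0 members. For Cnih2 the value was 0.13 with an SE of 0.201.

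**Figure D5:**
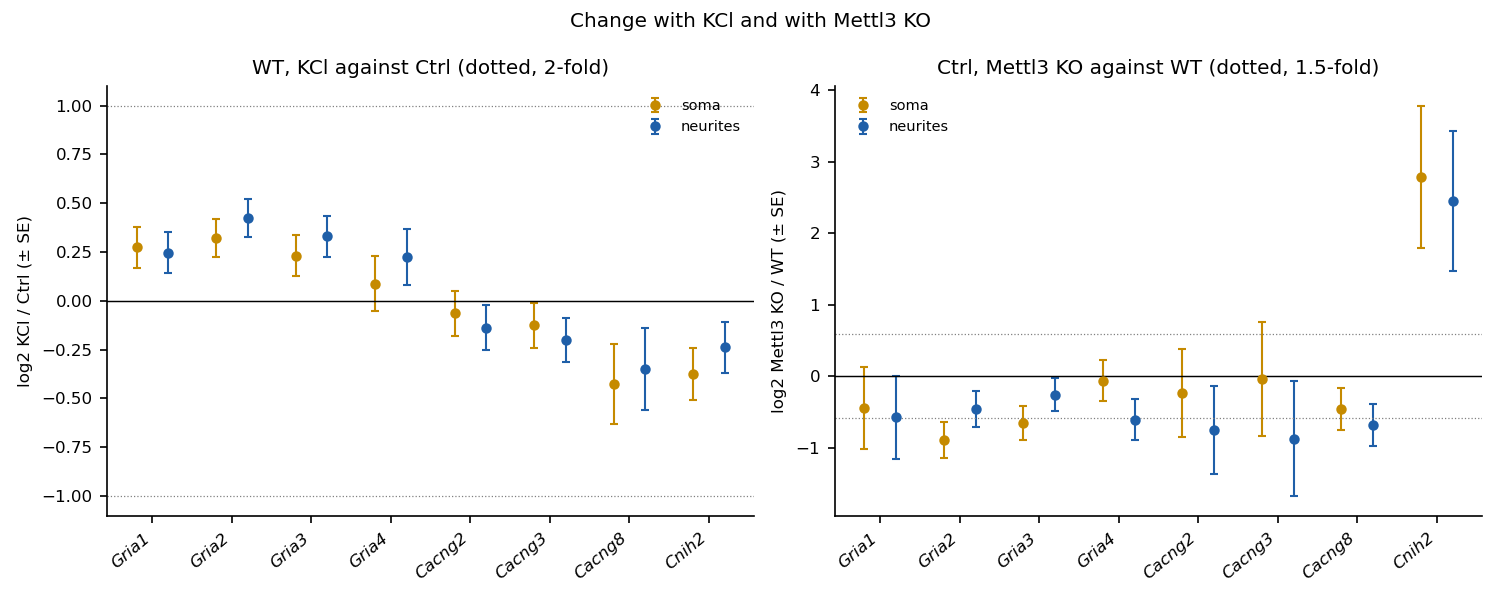
Log2 change of each member with KCl in WT soma and neurites (left, dotted lines at 2-fold), and in Mettl3 KO against WT in Ctrl soma and neurites (right, dotted lines at 1.5-fold), as the fitted value ± SE from edgeR. The KCl values stay between −0.43 and 0.42, and the Mettl3 KO values carry wider errors, up to 0.998 for Cnih2.

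Loss of Mettl3 passed the threshold for no member, and the widest difference, in Cnih2, came with the widest spread. The comparison asks whether RNA levels in each compartment depend on the m6A methyltransferase. In untreated Mettl3 KO soma Cnih2 measured 82.0 and 729 CPM, against 65.1 and 52.5 CPM in WT. In Mettl3 KO neurites it measured 1284 and 348 CPM, against 142 and 156 CPM in WT. Within each compartment both Mettl3 KO values lay above both WT values, but replicate 2 was high in soma and replicate 1 in neurites. On the log2(CPM + 1) scale, the 8.79-fold difference between the soma replicates exceeded that of 99.1% of 15170 genes, and the 3.68-fold difference between the neurite replicates that of 99.7%.

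Against WT, Cnih2 was 6.90-fold in soma (log2 2.79, SE 0.998, edgeR adjusted p = 0.422) and 5.46-fold in neurites (log2 2.45, SE 0.984, adjusted p = 0.593). Without Mettl3 KO Soma Ctrl replicate 2 the soma value was 0.44, and without replicate 1 it was 3.69 with an adjusted p of 0.0294. In neurites it was 1.22 without replicate 1 and 3.13 without replicate 2, called in neither. Astrocyte markers summed to 1937 to 2531 CPM in Mettl3 KO Ctrl soma and 2923 to 6725 CPM in Mettl3 KO Ctrl neurites, above WT soma but overlapping with WT neurites, and their part was not tested.

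The 6 protein-coding genes whose mean count reached 100 within 50000 bases of Cnih2 on chromosome 19 were chosen after the values were seen. With soma and neurites pooled, and both treatments in WT, the ranges of Mettl3 KO Ctrl and WT libraries overlapped for each. Cnih2 itself overlapped on this measure (82.0 to 1284 against 46.1 to 156 CPM), so the pooled ranges do not set it apart from its neighbours. Tmem151a measured 163 to 261 CPM in the 4 Mettl3 KO Ctrl libraries and 157 to 254 CPM in WT, and Rab1b 155 to 243 and 149 to 262 CPM. Yif1a, whose annotated end overlaps that of Cnih2 so that reads there cannot be told apart without strand, measured 12.2 to 32.1 CPM and 18.2 to 23.2 CPM. Klc2 measured 90.3 to 113 and 59.2 to 125 CPM, Pacs1 54.3 to 93.1 and 35.1 to 89.6 CPM, and Rin1 3.67 to 10.1 and 5.24 to 26.8 CPM. Within a compartment in Ctrl, Rin1 was lower in Mettl3 KO without overlap. It had at most 4.45 against at least 10.9 CPM in soma, and at most 10.1 against at least 23.99 CPM in neurites. Pacs1 was lower in soma only, Tmem151a and Klc2 in neurites only, and Rab1b was higher in soma and lower in neurites. Yif1a overlapped in both, and no neighbour was above WT in both compartments as Cnih2 was. Across the 16 libraries the pattern closest to that of Cnih2 was Btbd2 (Pearson r = 0.98 of log2 CPM among 12669 protein-coding genes), then Rnf11 (r = 0.97). Btbd2 measured 23.4 and 77.6 CPM in Mettl3 KO Ctrl soma, 89.9 and 45.2 CPM in Mettl3 KO Ctrl neurites and at most 36.8 CPM in WT. The high libraries of Btbd2 and Cnih2 were the same, soma replicate 2 and neurite replicate 1. This follows from choosing Btbd2 by its correlation with Cnih2 over these libraries. Grik5, a kainate receptor subunit, was named for the smallest p in its list for Mettl3 KO against WT. It had 23.5 and 149.5 CPM in Mettl3 KO Ctrl soma and 114 and 49.1 CPM in neurites, high in these same libraries.

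Gria2 was lower in Mettl3 KO in both compartments. It measured 319 and 216 CPM in Mettl3 KO Ctrl soma against 506 and 487 CPM in WT, and 313 and 327 CPM in Mettl3 KO Ctrl neurites against 428 and 451 CPM. The genotypes did not overlap in either compartment. The soma difference was −0.89 on the log2 scale (SE 0.248, edgeR unadjusted p = 0.00365, adjusted p = 0.274) and the neurite difference −0.46 (SE 0.246, adjusted p = 0.765). DESeq2 called the soma difference (adjusted p = 0.00641), and so did edgeR without insert 1 of the KCl-treated Mettl3 KO neurons (adjusted p = 0.0418). Both fits also called more of all genes than the reported fit. The Gria2 soma difference was not called in edgeR with RLE scaling (adjusted p = 0.273), without a count filter (0.347) or with the filter raised to 100 (0.207). Nor was it called on only the libraries compared (0.376) or with the replicate block (0.311). With 1 soma library left out, the log2 difference ran from −1.14 without Mettl3 KO Soma Ctrl replicate 1 to −0.68 without replicate 2.

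The other subunits and the TARPs were mostly lower in Mettl3 KO within wide errors. Gria1 measured 737 and 483 CPM in soma and 496 and 506 CPM in neurites of untreated Mettl3 KO neurons. In each compartment both lay below both WT Ctrl values. Gria3, with 53.1 and 55.3 CPM in soma and 61.7 and 53.5 CPM in neurites, was also below WT throughout (log2 −0.66 and −0.26). Gria4 overlapped with WT in soma (53.6 and 36.4 CPM) and was lower in neurites (23.2 and 28.7 CPM). Among the TARPs, Cacng2 (49.7 and 108 CPM) and Cacng3 (34.1 and 88.4 CPM) overlapped with WT in soma, and all 3 TARPs were below WT in neurites. For these genes, and for Gria2 and Cnih2 above, how many of all genes separate between genotypes in this way was not counted.

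In all, edgeR called 0 members in soma, where 0.0643% of 23335 genes were called higher and 0.124% lower, and 0 in neurites, where 0.0600% and 0.111% were. At an unadjusted p of at most 0.05 in edgeR the soma comparison had 3 members (Gria2, Gria3 and Cnih2) and the neurite comparison 2 (Cacng8 and Cnih2). Of all 23335 genes, 2088 passed this in soma and 1701 in neurites. DESeq2 called 1 member and 0. The median over the members was −0.34 in soma and −0.59 in neurites, where that of all genes was 0.02 and 0.01. Neuronal markers had medians of −0.17 and −0.64 in the same comparisons, with 0 of 7 called, and their part in the lower levels was not tested.

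Neurite enrichment did not differ detectably between genotypes for any member. The fit takes soma and neurite libraries of the same replicate number as 1 insert. Between Mettl3 KO Ctrl soma and neurites the replicate differences had a correlation of only 0.068 over genes, so this pairing was not shown. The change in the neurite-minus-soma difference was −0.75 for Cacng3 (SE 0.364, edgeR unadjusted p = 0.0693), −0.52 for Gria4, 0.46 for Gria2 and 0.10 for Cnih2 (SE 1.48). No member was called in edgeR, where 2.96% of genes were called higher and 1.33% lower at an unadjusted p. Without the fold, 0 members and 1002 of 23335 genes passed p of at most 0.05. DESeq2 called 0 as well. Without the Ctrl insert of Mettl3 KO replicate 1, 4 members were called (Gria2, Cacng2, Cacng3 and Cnih2), and without that of replicate 2, 2 members (Gria4 and Cnih2), with Cnih2 at −2.42 and 2.68. Calls over all genes also moved in these fits, to 3123 higher and 1856 lower of 23372 genes without replicate 1 and to 1100 and 885 of 23391 without replicate 2, from 691 and 310.

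Within the Mettl3 KO libraries alone, no comparison called a member or any other gene with edgeR (0% of 23099 genes in each direction, for neurites against soma in Ctrl and in KCl and for KCl against Ctrl in soma and in neurites). Without Mettl3 KO Soma Ctrl replicate 1, 1024 genes were called higher and 5 lower in Ctrl neurites, and without Mettl3 KO Neurite KCl replicate 1, 3 genes were called higher with KCl in neurites. At an unadjusted p of at most 0.05, 1214, 146, 1483 and 1469 genes and 0 members passed, and DESeq2 called 0 members in each, with 7 genes higher and 1 lower, 0 and 0, 218 and 52, and 224 and 27. Cnih2 measured 35.1 and 86.7 CPM in Mettl3 KO KCl soma and 40.1 and 256 CPM in Mettl3 KO KCl neurites. Its log2 change with KCl was −2.83 (SE 1.27) in soma, where the groups overlapped, and −2.54 (SE 1.26) in neurites, where they did not.

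Insert 1 of the KCl-treated Mettl3 KO neurons held the lowest values of several members. There Gria1 was at 277 CPM in the soma and 140.3 CPM in the neurites, against 766 and 632 CPM in insert 2. Cacng3 had 17.0 and 4.19 CPM against 69.2 and 34.7 CPM, and Cacng2 21.6 and 13.6 against 59.8 and 66.1 CPM. Gria2 did not follow, with 338 and 347 CPM in insert 1 and 272 and 390.5 CPM in insert 2. In the same insert astrocyte markers reached 19334 CPM, markers of the oligodendrocyte lineage 7339 CPM and neuronal markers 983 CPM in neurites, against 2814, 96.3 and 5315 CPM in insert 2. Their part in the member values was not tested. Over the 8 Mettl3 KO libraries the highest value was 36.6 times the lowest for Cnih2, 21.1 times for Cacng3, 7.93 times for Cacng2 and 5.46 times for Gria1, but 1.81 times for Gria2 and 1.78 times for Gria3.

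Other genes of the pathway were read from 4 lists, whose counts stand beside the shares of all genes given above. Of 6 further TARP-family and cornichon genes, 0 were called in any WT comparison of compartments or KCl. Cnih1, which unlike Cnih2 is expressed in most tissues, was lower in neurites by 0.55 on the log2 scale (edgeR adjusted p = 0.00745), just short of the fold threshold. Cnih3, the closest relative of Cnih2, was higher in neurites under KCl by 0.50 (adjusted p = 0.0375) and was at −0.49 in soma with KCl (adjusted p = 0.0363), also under the fold threshold.

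Of 23 other auxiliary, assembly and secreted clustering proteins, 0 were called higher and 1 lower in neurites of WT Ctrl neurons, and 1 and 1 in WT KCl. Porcn, an acyltransferase that also sits in AMPA receptor complexes, was the lower gene in both (log2 −0.91 and −0.60, edgeR adjusted p = 0.00145 and 0.0140). Prrt1, which encodes the auxiliary protein SynDIG4, was the higher gene in WT KCl (log2 1.30, adjusted p = 0.0114). The list median was −0.33 in Ctrl and −0.14 in KCl.

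KCl moved 2 secreted or surface proteins of this list upward in both compartments. Nptx2, an activity-induced pentraxin that clusters AMPA receptors, rose by 1.40 in soma and 1.68 in neurites on the log2 scale (edgeR adjusted p = 0.00519 and 0.00327). Nrn1, an activity-induced neuritin, rose by 1.20 in each (adjusted p = 0.000527 and 0.000746). Shisa8 and Prrt1 fell in soma, by 1.09 each (adjusted p = 0.0138 and 0.0215), both named after their values were seen, so that 2 genes were called higher and 2 lower in soma and 2 and 0 in neurites. For the change in neurite enrichment with KCl, Prrt1 (log2 1.15), Shisa8 (1.01) and Gsg1l (0.61) were called higher at an unadjusted p, and 0 genes lower.

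The third list held 16 genes whose products anchor or recycle AMPA receptors or edit their RNA. Of these, 3 were called higher in neurites in WT Ctrl and 4 in WT KCl, where 8.99% and 6.84% of all genes were, and 0 lower. Dlg4, which encodes the scaffold PSD-95, measured 145 CPM in Ctrl soma and 298 CPM in Ctrl neurites on average (log2 0.95 in Ctrl and 1.25 in KCl, edgeR adjusted p = 0.00837 and 0.00315). Epb41l1, which encodes the GluA1-binding protein 4.1N, was at 0.75 and 0.73 (adjusted p = 0.00167 and 0.00250). Adarb1, the editing enzyme that acts on the Gria2 Q/R site, was at 0.76 and 0.83 (adjusted p = 0.0328 and 0.0303), and Dlg1, which encodes SAP97, was the other gene called in KCl (log2 0.72, adjusted p = 0.0252). KCl called 0 of the 16 in either compartment, and 1, Grip2, in the change in neurite enrichment (log2 0.71). List medians were 0.10 in Ctrl and 0.17 in KCl.

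Of 7 kainate and delta receptor subunits, 0 were called higher and 1 lower in WT Ctrl neurites, and 0 and 2 in WT KCl. Grik3 was at −0.67 and −0.74 (edgeR adjusted p = 0.0419 and 0.0389), and Grik1 at −0.64 in KCl (adjusted p = 0.0187). In Mettl3 KO against WT no gene of any of the 4 lists was called in edgeR in either compartment. Grik5 had the smallest p in its list, at log2 2.54 in soma and 2.08 in neurites (adjusted p = 0.274 and 0.453). For the difference in neurite enrichment between genotypes, 1 gene, Grik1, was called lower (log2 −0.76).

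The genes whose patterns over the 16 libraries came closest to those of the members were named by Pearson r of log2 CPM, as a description over libraries that share genotype, compartment and cell composition. Gria1 was followed by Spock1 and Syt1 (r = 0.99 for each), Cacng3 by Vstm5 (0.99) and Fgf9 (0.98), and Cacng2 by Dmtn and Vamp2 (0.98 each). Syt1 and Vamp2 encode proteins of synaptic vesicles. Gria2 was followed by Mymk and Cntn1 (0.95 each), Gria3 by Myadm (0.92) and Cdh2 (0.91), Gria4 by Pag1 (0.92) and Uggt2 (0.89), and Cacng8 by Zfp235 (0.93) and Nol9 (0.92).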

How the data were processed

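RNA-seq and in vitro DART-seq libraries were made from 50 ng of total RNA each, with a kit that does not keep strand. In the count table deposited by the authors, a value is a count of fragments on the exons of an Ensembl gene, without normalization. Reads were aligned with STAR and counted with featureCounts 2.0.1 on GRCm38 (Ensembl release 97), and the header lists the counting of fragments that map to several places, so near-identical copies can share counts. The authors' DESeq2 tables hold a deposited signal (mean counts scaled by size factors), fold changes and p-values, and only their gene IDs, symbols and biotypes were used. The authors' editing score of an RNA is deposited as a sum of C2U fractions over its sites, and each deposited site carries 1 fraction, an average with no replicates. The authors filtered sites on reads, editing rate, sequence and excess over Mettl3 KO. Scores do not equal the sums of the site fractions exactly (0.206 and 0.222 for Gria1), for a reason that was not tested.

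Differences were tested in edgeR 4.0.16 (R 4.3.3) by the quasi-likelihood F-test after TMM scaling, two-sided, on genes whose mean count reached 10, with p adjusted over all of them by Benjamini-Hochberg. Comparisons within a genotype used its 8 libraries, and those between genotypes used 16. For changes in neurite enrichment, each insert had a term of its own, which takes the soma and neurite libraries of the same replicate number as 1 insert. Thresholds follow the study's methods: 1.5-fold (KCl, 2-fold) and an adjusted p of at most 0.05, or 1.5-fold and p of at most 0.05 without adjustment for changes in neurite enrichment. The SE is the log2 change over the square root of F. CPM use TMM over 16 libraries. The 37 mitochondrially encoded genes have a count of 0 and were left out. Library totals ran from 33789183 to 71394235 counts, with at least 172 counts behind each member. Reads without molecular identifiers are not independent molecules. The fits were tested on simulated data.

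Members, lists and the use of separate fits per genotype were chosen with earlier results of these data known. The genes named are the members, up to 3 genes of smallest p from each list and comparison, and the 2 nearest patterns of each member. Alternatives were DESeq2 1.42.0, RLE scaling, no count filter or a mean count of at least 100, other sets of libraries, a replicate block, leaving out each replicate, and p adjusted where the threshold is unadjusted. Gene places and sequence windows came from GRCm38 with GENCODE M21 (Ensembl release 96), read with pysam 0.24.0. The APPRIS principal transcript of each gene was used, the longest where there were several. Some sequence of Gria2 is not reported here.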

Additional observations from a re-analysis of the deposited data

Results flagged for a closer look

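Gria2 was picked out by a rule on differences between groups, because its sign under KCl differed between genotypes. Its neurite value minus its soma value, on the log2(CPM + 1) scale, was negative in both WT inserts (−0.25 and −0.11, mean −0.18) and positive in both Mettl3 KO inserts (0.04 and 0.52, mean 0.28). The value of 0.04 comes from insert 1, the one with 19334 CPM of astrocyte markers in neurites. In Ctrl the sign was not split, with −0.24 and −0.11 in WT and −0.03 and 0.60 in Mettl3 KO. With 2 inserts per genotype the difference was not tested, and how many of all genes split in the same way was not counted. Groups of 2 are too small for a check of single outlying samples.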

How the results depend on the processing

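Of the member results, 1000 single values kept their direction and side of the threshold across the alternatives, while 56 turned sign, 14 passed the threshold where the reported value did not and 2 no longer passed it. The only reported values past the threshold were those of Cnih2 between WT neurites and soma. Most of the 1000 were therefore uncalled values that stayed uncalled, however far they moved. Of the counts of called members, 125 stayed the same and 12 moved. The neurite enrichment of Cnih2 in WT was called in every alternative but the fit to all 16 libraries, which called 0 members in Ctrl and 0 in KCl. With no count filter 1 member, Cnih2, was called for KCl in Mettl3 KO soma, 1 for KCl in Mettl3 KO neurites, 1 for Mettl3 KO soma and 1 for Mettl3 KO neurites. Against WT soma, DESeq2 called 1 member (Gria2), as did the 14 libraries without KCl-treated Mettl3 KO insert 1, and the change in neurite enrichment gave 1 (Cacng3) in those 14. With 1 replicate left out, the count ran from 0 to 2 for Mettl3 KO soma, with 2 without Mettl3 KO Soma Ctrl replicate 1, and from 0 to 4 for the Mettl3 KO change in neurite enrichment, where calls over all genes moved as well. The cause was not tested, beyond the smaller sets of libraries themselves.

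Some signs turned. With 16 libraries, Cacng2 for KCl in WT soma was 0.014, and the KCl changes in neurite enrichment of Gria2, Gria3 and Cacng8 were −0.0049, −0.011 and −0.032. In Mettl3 KO Ctrl, Cacng2 between neurites and soma was 0.00178 with DESeq2, 0.00176 with RLE, 0.027 in the libraries of the comparison alone, 0.020 in all 16 and 0.25 with the replicate block. Gria3 in Mettl3 KO KCl was −0.010 at a mean count of at least 100. With the replicate block Gria4 in Mettl3 KO soma was 0.020, and without it Cnih2 in the Mettl3 KO change in neurite enrichment was −0.34.

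With each replicate left out, neurites against soma ran from −0.33 to 0.036 (Ctrl) and −0.32 to 0.15 (KCl) for Cacng8 in WT. KCl in WT soma ran from −0.024 to 0.21 for Gria4, −0.12 to 0.034 for Cacng2 and −0.16 to 0.042 for Cacng3. The KCl change in neurite enrichment ran from −0.10 to 0.068 for Gria1, −0.0093 to 0.32 for Gria4, −0.16 to 0.027 for Cacng2, −0.18 to 0.34 for Cacng8 and −0.085 to 0.35 for Cnih2. In Mettl3 KO Ctrl, neurites against soma ran from −0.56 to 0.075 for Gria1, −0.41 to 0.68 for Cacng2 and −0.20 to 3.31 for Cnih2. In Mettl3 KO KCl it ran from −1.99 to 0.42 for Gria1, −0.27 to 0.36 for Gria3, −0.49 to 0.21 for Gria4, −1.67 to 0.83 for Cacng2, −3.46 to 0.13 for Cacng3 and −0.69 to 2.07 for Cnih2. KCl in Mettl3 KO soma ran from −1.20 to 0.33 for Gria1, −0.072 to 0.34 for Gria2 and −1.94 to 0.33 for Cacng3, and in neurites from −2.07 to 0.33, −0.12 to 0.29 and −2.90 to 0.38. Mettl3 KO against WT soma ran from −0.31 to 0.15 for Gria4, −0.94 to 0.28 for Cacng2 and −0.92 to 0.55 for Cacng3. The Mettl3 KO change in neurite enrichment ran from −0.35 to 0.22 for Gria1, −1.11 to 0.34 for Cacng2, −0.48 to 0.044 for Cacng8 and −2.42 to 2.68 for Cnih2. A group left with 1 library was taken to vary like the others.

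Over all genes, calls in the Ctrl comparison of WT neurites with soma went from 2085 higher and 1048 lower to 0 and 0 with 16 libraries, to 1395 and 186 without WT Soma Ctrl replicate 1, to 981 and 95 without replicate 2 and to 1405 and 508 without WT Neurite Ctrl replicate 2. In WT KCl they went from 1586 and 627 to 0 and 0, to 595 and 136 without WT Neurite KCl replicate 1 and to 1003 and 254 without replicate 2. For KCl, 882 and 699 in WT soma became 313 and 19 with 16 libraries and 533 and 422 at a mean count of at least 100, and 752 and 395 in WT neurites became 232 and 22, and 489 and 233, or 1096 and 665 with no filter. With WT Soma Ctrl replicate 1 left out the soma counts were 594 and 212, with replicate 2 left out 595 and 317, and 457 and 141 in neurites without WT Neurite KCl replicate 2. KCl changes in neurite enrichment went from 465 and 314 to 219 and 279 with DESeq2, 98 and 187 with 16 libraries, 851 and 606 with no filter, 269 and 156 at the higher count, and 0 after adjustment, and to 921 and 706 without WT Ctrl insert 1, 210 and 323 without WT KCl insert 1 and 1272 and 300 without WT KCl insert 2. In Mettl3 KO Ctrl neurites, 1024 and 5 genes were called without Mettl3 KO Soma Ctrl replicate 1 in place of 0. In Mettl3 KO, no filter gave 166 and 10 (neurites, Ctrl), 695 and 85 (KCl, soma) and 693 and 49 (KCl, neurites) in place of 0, and 16 libraries gave 227 and 46 and 211 and 14 for KCl. Mettl3 KO against WT soma went from 15 and 29 to 189 and 224 with DESeq2, 327 and 178 with no filter, 124 and 287 in 14 libraries, 0 in the libraries of the comparison alone and 720 and 1930 without Mettl3 KO Soma Ctrl replicate 1, and at most 8 and 6 without any other library of the comparison. In neurites, 14 and 26 became 113 and 193, 211 and 142, 77 and 182, and 38 and 98, and at most 3 higher and 11 lower without any 1 library of the comparison. The Mettl3 KO change in neurite enrichment went from 691 and 310 to 1354 and 262 with DESeq2, 2129 and 547 with no filter, 503 and 113 at the higher count, 185 and 162 in the libraries of the comparison alone, 146 and 166 without the block, 0 after adjustment, 3123 and 1856 without Mettl3 KO Ctrl insert 1, 1100 and 885 without insert 2 and 157 and 120 without WT Ctrl insert 2.

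Replicate numbers were not shown to pair the samples: between soma and neurites, the differences of replicate 2 from replicate 1 had a correlation of −0.139 (WT Ctrl), 0.00128 (WT KCl), 0.0678 (Mettl3 KO Ctrl) and 0.902 (Mettl3 KO KCl) over 15170 genes. The study's methods state that Ctrl and KCl neurons shared a litter, but no label ties a replicate number to a litter. The replicate block changed no call of a member in the comparisons of compartment, KCl or genotype. It gave 1920 genes higher and 913 lower for WT Ctrl neurites, and 4 and 2 genes higher for KCl in Mettl3 KO soma and neurites in place of 0. With the WT Ctrl numbers crossed, an alternative chosen after seeing the data, these were 2116 and 1146, and the same 1 member, Cnih2, was called. At least 172 counts lay behind each member in each library, the lowest for Cacng8, and whether depth limits the members was not tested. DART-seq values carry no depth or error.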
